A study of Mus musculus with 6 samples.

Results

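The endoplasmic reticulum (ER) unfolded protein response was followed through 10 of the 59485 genes of the expression table, taken by name as genes of the pathway. They are the sensors *Ern1* and *Atf6*, the transcription factor *Xbp1*, the chaperones and co-chaperones *Hspa5*, *Hsp90b1*, *Dnajb9* and *Sdf2l1*, the glycoprotein chaperone *Calr*, the disulfide isomerase *Pdia4* and the degradation factor *Herpud1*. All 10 were found by symbol, and all 10 passed the filter on low values, a mean of at least 10 in at least 1 genotype. RNA-seq was performed on sciatic nerves taken at P4 (postnatal day 4) from 3 control and 3 mutant mice, with 1 library per animal. The mutants are Ht-PA-Cre; Adar1fl/fl;R26R. In them, Cre under the human tissue plasminogen promoter removes the floxed *Adar1* alleles in neural crest (NC) cells, the lineage that gives rise to Schwann cells (SCs), and R26R is a YFP tracer of recombined cells. The controls are labelled wild-type, a term that in the study's breeding scheme covers Cre-free animals with the R26R tracer and floxed alleles. Endothelial cells and blood cells of the nerve lie outside the NC lineage, and each value is a sum over the cell types of the tissue.

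Proteins that enter the secretory pathway fold inside the ER with the help of chaperones, disulfide isomerases and a glycan-based quality control. When unfolded proteins build up, the sensors IRE1 (encoded by *Ern1*), ATF6 and PERK (encoded by *Eif2ak3*) are activated. IRE1 splices the *Xbp1* transcript into the form that encodes an active transcription factor, ATF6 is cut in the Golgi to free its own transcription factor, and PERK phosphorylates eIF2alpha, which lowers translation while favoring that of *Atf4*. XBP1 and ATF6 switch on chaperone and degradation genes, whereas ATF4 acts on genes of amino acid supply, redox balance and cell death and can also be reached through other eIF2alpha kinases. Myelinating SCs make large amounts of membrane and secretory protein, and this response has been studied in them in connection with mutant myelin proteins.

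The libraries held between 50938349 and 78250094 reads on genes, and values are these reads divided by the authors' size factor of each library, so that a value is close to a read count in a library of average depth. Libraries of the same genotype had higher Pearson correlations across genes (0.941 to 0.951) than libraries of different genotypes (0.855 to 0.884), as a description in which genes do not count as replicates. The targeted gene *Adar* had values of 1602, 2066 and 1133 in the libraries labelled control and of 11768, 9311 and 9773 in those labelled mutant. This is a rise of 2.72 on the log2 scale (SE 0.20, adjusted p = 4.1e-05, limma), opposite to what deletion of the gene would give. The table has 1 value per gene, which cannot show the loss of single exons. Directions below are therefore between libraries labelled mutant and libraries labelled control. Of 8 SC markers, 7 fell in the mutant-labelled libraries, where their summed values ran from 102315 to 413892 against 2234999 to 2710595 in the control-labelled ones. Skeletal muscle markers went the other way, with 4 of 5 higher and sums of 34500 to 267697 against 5187 to 28318. Fibroblast markers (2 of 5 lower) summed to 718507 to 1061209 against 1777657 to 2106505. Red blood cell markers (3 of 4 lower) summed to 3820 to 11722 against 39570 to 55612, and endothelial markers (2 of 5 higher) to 16706 to 22320 against 11641 to 17493. Of the other 7 lists, macrophage markers had 2 of 6 higher and 2 lower, perineurial markers 1 of 4 higher and 1 lower and T cell markers 1 of 3 tested higher, and no pericyte, plasma and B cell, mast cell or adipocyte marker passed the test. No marker of the 12 lists was at 0 in all libraries. In tissue libraries, fewer cells of a type and less RNA per cell cannot be told apart.

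*Herpud1*, *Hspa5* and *Xbp1* rose in mutant-labelled libraries, by 2.21, 1.55 and 1.30-fold in ratio of means, and none of the 10 fell at an adjusted p at or under 0.05 with limma, nor with edgeR or DESeq2 on the recovered reads. Of all 25802 genes tested, 19.0% rose and 16.0% fell by the same rule. The 7 members that did not pass were not alike, since *Atf6*, *Dnajb9* and *Ern1* had positive and *Hsp90b1*, *Pdia4*, *Calr* and *Sdf2l1* negative log2 fold changes. At an unadjusted p at or under 0.05, 5 members were higher and 4 lower, as were 24.2% and 20.8% of the tested genes. Without control replicate 1, 5 members rose, and without mutant replicate 2, 2 members fell. The 3 mutant-labelled values lay all above the control-labelled values in 5 members and all below them in 4, which happened in 25.9% and 23.3% of the tested genes. *Herpud1* was the only member past the threshold of a p at or under 0.05, taken here as unadjusted, and a change of at least 2-fold, which 24.2% of the tested genes passed. The median log2 fold change of the members was 0.34, beside 0.03 over all tested genes.

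**Figure D1:**
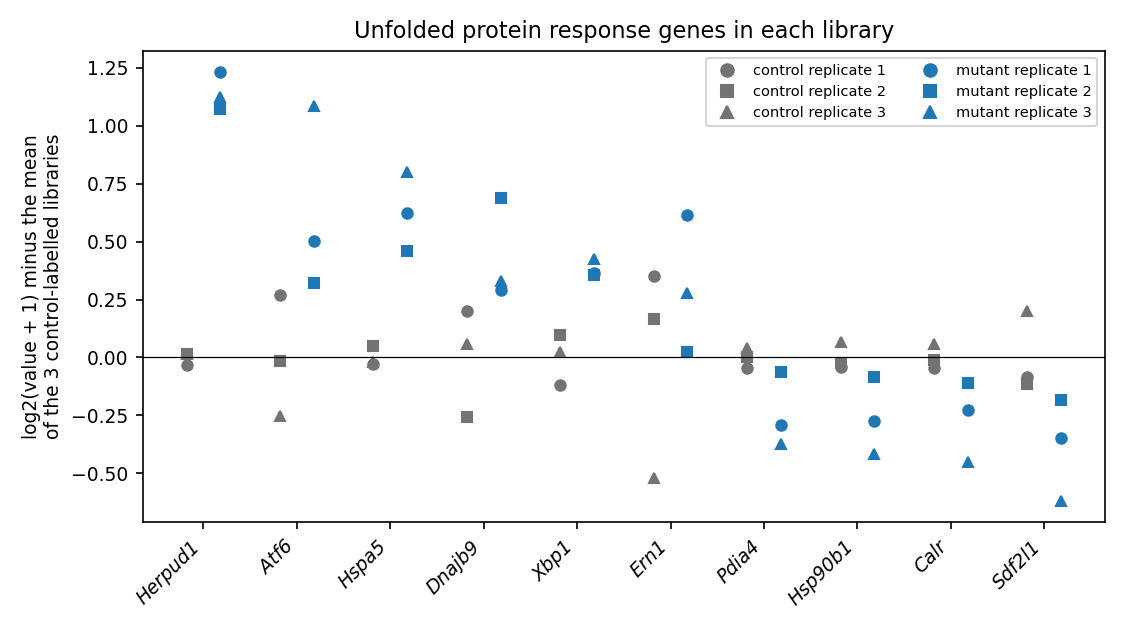
Values of the 10 unfolded protein response genes in each library, as log2(value + 1) minus the mean of the 3 control-labelled libraries (y axis), with gray symbols for control and blue for mutant replicates and genes ordered by fold change. The blue points lie above all gray ones for *Herpud1*, *Atf6*, *Hspa5*, *Dnajb9* and *Xbp1*, below them for *Pdia4*, *Hsp90b1*, *Calr* and *Sdf2l1*, and among them for *Ern1*.

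Of *Xbp1*, *Atf6* and *Ern1*, the members at the top of the pathway, *Xbp1* alone passed the test. *Xbp1* (chromosome 11, 5520641 to 5525992 in mm10), the transcription factor of the IRE1 branch, had values of 9744, 11304 and 10737 in control-labelled and of 13604, 13543 and 14217 in mutant-labelled libraries. The genotypes did not overlap, and the CV of the mutant-labelled values was 2.7%. *Xbp1* thus rose by 0.38 on the log2 scale (SE 0.09, 95% interval 0.18 to 0.58, adjusted p = 0.0104, limma), and the adjusted p was 0.0726 when limma was run without a trend of the variance. A single value per gene does not separate spliced from unspliced *Xbp1*, so IRE1 activity is not read from it. *Atf6* (chromosome 1, 170704457 to 170867771), the sensor that becomes a transcription factor by cleavage, had values of 889, 731 and 620 in the control-labelled libraries and of 1046, 922 and 1569 in the mutant-labelled ones. All 3 mutant-labelled values were above the control-labelled ones, yet mutant replicate 3 stood far above replicates 1 and 2. The log2 fold change was 0.64 with a wide error (SE 0.22, adjusted p = 0.0544), and without mutant replicate 3 it was 0.41 (adjusted p = 0.149). The adjusted p was under 0.05 in 6 other settings, among them DESeq2 on the recovered reads (0.0183) and the fit without control replicate 1 (0.0478). *Ern1* (chromosome 11, 106394651 to 106487855), which encodes the IRE1 kinase and endoribonuclease, was measured from the fewest reads of the members, 88 to 339 per library. Its values of 205, 180 and 112 in control-labelled libraries overlapped the 247, 163 and 195 of the mutant-labelled libraries. The interval of its log2 fold change, -0.39 to 0.998, covers changes in both directions (adjusted p = 0.468), and a gene without a symbol overlaps it on the same strand.

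Of the 4 chaperone and co-chaperone members, *Hspa5* rose and the other three did not pass the test. *Hspa5* (chromosome 2, 34772090 to 34777547) encodes BiP, the main Hsp70 of the ER, which also holds the sensors inactive. Its values were 21718, 22927 and 21861 in control-labelled and 34183, 30436 and 38571 in mutant-labelled libraries. The lowest mutant-labelled value was well above the highest control-labelled one, and the rise of 0.63 on the log2 scale (SE 0.10, 95% interval 0.39 to 0.86) had an adjusted p of 0.00202. *Hsp90b1* (chromosome 10, 86690209 to 86705510) encodes GRP94, the Hsp90 of the ER, and had values of 67760, 68402 and 72820 against 57609, 65661 and 52128. It did not pass the test, with a log2 fold change of -0.26 (SE 0.10, 95% interval -0.50 to -0.02, adjusted p = 0.0896), although the genotypes did not overlap. Mutant replicate 2 was closest to the controls, and without it the adjusted p was 0.0369. *Dnajb9* (chromosome 12, 44205895 to 44210069) encodes ERdj4, a J-domain partner of BiP, and had values of 1756, 1280 and 1593 against 1874, 2467 and 1926. The highest control-labelled and the lowest mutant-labelled value were close, and the log2 fold change of 0.44 (SE 0.16) had an adjusted p of 0.0626. It was 0.0394 with DESeq2 and 0.0492 without control replicate 1. *Sdf2l1* (chromosome 16, 17130138 to 17132383), a component of BiP and ERdj complexes, had values of 1173, 1151 and 1429 against 977, 1097 and 810. These did not overlap, and the log2 fold change of -0.38 (SE 0.15) had an adjusted p of 0.0879.

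*Calr* and *Pdia4* stood close to *Hsp90b1* in size and direction. *Calr* (chromosome 8, 84841850 to 84846931) encodes calreticulin, the soluble lectin chaperone that holds freshly made glycoproteins, and had values of 90202, 92507 and 96954 in control-labelled and of 79696, 86407 and 68213 in mutant-labelled libraries. *Pdia4* (chromosome 6, 47794394 to 47813512) encodes the isomerase ERp72, with values of 22806, 23597 and 24211 against 19252, 22547 and 18170. In both genes every mutant-labelled value was under every control-labelled value, and replicate 2 was again the highest of the mutants. Their log2 fold changes of -0.26 (SE 0.11, adjusted p = 0.0935) and -0.24 (SE 0.10, adjusted p = 0.0943) did not pass the test. Without mutant replicate 2, *Pdia4* had an adjusted p of 0.0272. With libraries rescaled to the same total, the log2 fold changes of *Hsp90b1*, *Calr*, *Pdia4* and *Sdf2l1* were -0.095, -0.098, -0.078 and -0.22.

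*Herpud1* (chromosome 8, 94386429 to 94395371) had the largest change. It encodes a short-lived ER membrane protein that assembles the HRD1 complex, by which misfolded proteins are handed to the proteasome. The values were 1478, 1526 and 1527 in control-labelled libraries, which is a CV of 1.85%, and 3547, 3178 and 3295 in mutant-labelled libraries. The lowest mutant-labelled value was more than 2-fold the highest control-labelled one. The rise was 1.14 on the log2 scale (SE 0.10, 95% interval 0.92 to 1.36, adjusted p = 6.93e-05), and it lay between 1.08 and 1.31 under all 17 alternative settings. A gene without a symbol overlaps *Herpud1* on the opposite strand.

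**Figure D2:**
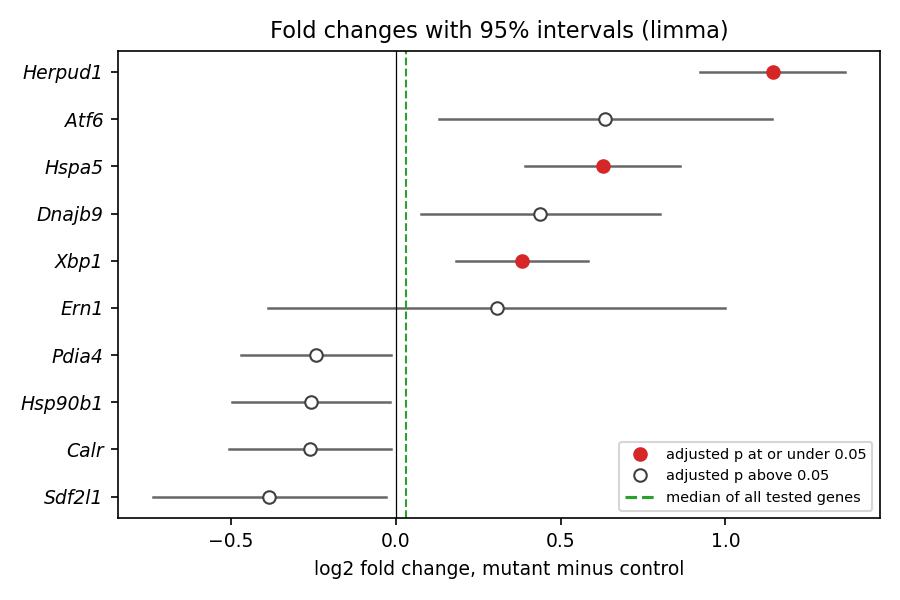
Log2 fold change of each member between mutant-labelled and control-labelled libraries (x axis) with its 95% interval from limma. Filled points mark *Herpud1*, *Hspa5* and *Xbp1*, whose adjusted p was at or under 0.05, and the dashed line is the median of all tested genes, 0.03. The interval of *Ern1* is the only one that crosses 0.

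The order of the mutant-labelled libraries was shared by several members. *Hspa5* and *Atf6* were highest in mutant replicate 3 and lowest in replicate 2, and *Hsp90b1*, *Pdia4*, *Calr* and *Sdf2l1* had the reverse order. The sum of the skeletal muscle markers followed the first of these orders, at 82948, 34500 and 267697 in mutant replicates 1, 2 and 3. So did that of the mast cell markers, whereas the sums of the pericyte, perineurial and plasma and B cell markers followed the reverse order. The part of these cell types in the results was not tested. Without mutant replicate 3 the log2 fold change of *Hspa5* was 0.54 (adjusted p = 0.00741), and those of *Hsp90b1*, *Pdia4* and *Calr* were -0.18, -0.18 and -0.17.

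Ratios within a library do not depend on how libraries were scaled, and the pairs given here were chosen after the values were seen, so no test was made. The *Hspa5* value divided by that of *Hsp90b1* was 0.320, 0.335 and 0.300 in control-labelled and 0.593, 0.464 and 0.740 in mutant-labelled libraries. BiP transcripts thus went from 0.319 ± 0.018 (SD, n = 3) to 0.599 ± 0.138 (SD, n = 3) of the GRP94 value. Divided by the value of *Calr*, *Hspa5* went from 0.238 ± 0.011 to 0.449 ± 0.108 (SD, n = 3 each). *Herpud1* over *Sdf2l1* went from 1.22 ± 0.134 to 3.53 ± 0.591 (SD, n = 3 each), and its lowest mutant-labelled ratio, 2.90, was above the highest control-labelled one, 1.33. In each pair the first gene lay wholly above and the second wholly below its control-labelled values. Separation of the ratios was therefore certain in advance and adds nothing to the values of the genes. Since the counted length of each gene is not given in the sources used here, only the change of a ratio can be read, not its size.

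**Figure D3:**
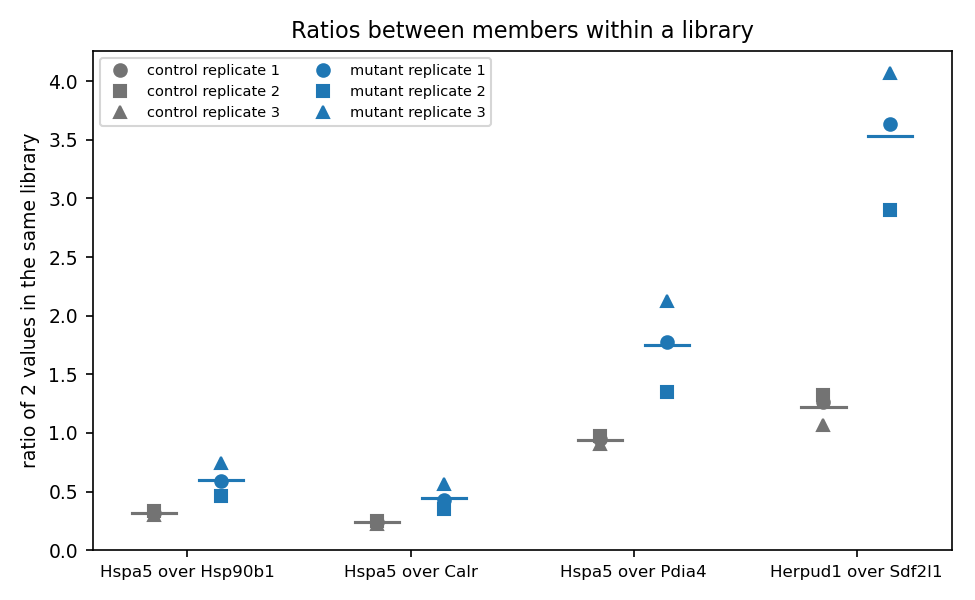
Ratio of the values of 2 members in the same library (y axis, from 0), with gray symbols for control-labelled and blue for mutant-labelled replicates and a bar for the mean of each genotype. For each of the 4 pairs the blue points lie above all gray points, which follows from the non-overlapping values of the genes in each pair.

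Promoter sequences (RefSeq, GRCm38.p6, 250 bases before to 50 bases after each gene start) were available for 9 of the 10 members, *Atf6* being the exception. They were searched on both strands for the ER stress response element (ERSE), which is CCAAT and CCACG with any 9 bases between them and is bound by NF-Y together with ATF6 or XBP1. ERSE occurred in 39 of 32851 windows (0.119%), among them those of *Hspa5*, *Hsp90b1* and *Calr*. ERSE-II (ATTGG, any base, CCACG) occurred in 12 windows (0.0365%), among them that of *Herpud1*. The stretches around these matches are shown because they set members that rose beside members that did not, with each ERSE or ERSE-II in capitals and, in *Herpud1*, also a C/EBP-ATF element, which is described further on. They run 5′ to 3′ in the direction of the gene, *Hspa5* at chr2:34771995-34772073 on the plus strand, *Hsp90b1* at chr10:86705503-86705686 on the minus strand, *Calr* at chr8:84847045-84847123 on the minus strand and *Herpud1* at chr8:94386287-94386417 on the plus strand.
Hspa5: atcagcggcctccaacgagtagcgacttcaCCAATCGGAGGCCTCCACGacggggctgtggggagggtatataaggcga
Hsp90b1: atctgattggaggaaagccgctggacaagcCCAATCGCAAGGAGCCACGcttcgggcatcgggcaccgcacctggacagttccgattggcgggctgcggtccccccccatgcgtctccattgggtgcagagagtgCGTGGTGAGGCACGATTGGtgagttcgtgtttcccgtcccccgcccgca
Calr: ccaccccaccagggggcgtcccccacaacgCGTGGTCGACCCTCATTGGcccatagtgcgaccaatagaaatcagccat
Herpud1: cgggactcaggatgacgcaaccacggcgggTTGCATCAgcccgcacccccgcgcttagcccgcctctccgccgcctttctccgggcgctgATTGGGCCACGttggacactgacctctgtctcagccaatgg

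By the gene starts of RefSeq, the ERSE of *Hspa5* begins 65 bases before the start, those of *Hsp90b1* 212 and 107 bases and that of *Calr* 162 bases before it. The expression table places the start of *Hsp90b1* further upstream than RefSeq does, at 86705510, so that its sites lie closer to that start. Of these members *Hspa5*, with 1 ERSE, rose, and *Hsp90b1*, with 2, and *Calr*, with 1, did not pass the test. Of 12 pathway genes with ERSE or ERSE-II, members included, *Hspa5* and *Herpud1* rose, *Syvn1* fell and 9 did not pass. The log2 fold changes of these 9 ran from -0.36 (*Ero1lb*) to 0.68 (*Derl3*), and those of *Canx*, *Pdia6*, *Dnajb11*, *Dnajc3*, *Creld2*, *Calr* and *Hsp90b1* lay between -0.26 and -0.01. Over all 33 tested genes with either element, 8 rose (24.24%) and 4 fell (12.12%), beside 19.0% and 16.0% of all tested genes. Their median log2 fold change was -0.01. The 8-letter UPRE, TGACGTGG, occurred in 222 windows (0.676%), none of them of a member. It was found in 6 pathway genes, *Kdelr3*, *Sec24d*, *Txndc11*, *Txndc5*, *Ube2j1* and *Vcp*. Of the 124 tested genes with it, 30 rose and 23 fell, with a median log2 fold change of 0.035. A match is a description of the letters and no evidence that a factor binds.

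Larger changes were found in the list named here PERK branch output, chosen like the others with earlier results of these data known. ATF4 can also be reached through other eIF2alpha kinases, so these genes do not single out PERK, and which kinase acted was not tested. Of its 9 genes, 8 rose and none fell, beside 19.0% and 16.0% of all tested genes. The median log2 fold change was 3.02. *Atf4*, the transcription factor whose translation eIF2alpha phosphorylation favors, rose from 18550 ± 477 to 33487 ± 1821 (SD, n = 3), a log2 fold change of 0.85 (SE 0.08, adjusted p = 0.000137). *Ddit3*, which encodes the pro-apoptotic factor CHOP, had values of 113, 136 and 133 in control-labelled and of 1508, 1426 and 1906 in mutant-labelled libraries. It rose by 3.64 (SE 0.18, adjusted p = 5.47e-06), far beyond any member. *Chac1*, a glutathione-degrading enzyme, was measured from few reads in the control-labelled libraries, with values of 28.9, 11.3 and 22.8, and reached 3667, 2679 and 3540. *Trib3*, a pseudokinase and target of ATF4 and CHOP, had values of 82.2, 36.8 and 120 against 10367, 8396 and 12559. The log2 fold changes were 7.31 (SE 0.33, adjusted p = 4.28e-06) for *Chac1* and 7.15 (SE 0.38, adjusted p = 8.31e-06) for *Trib3*. *Asns*, the asparagine synthetase gene and a target of ATF4 in amino acid shortage, was chosen after its values were seen, and rose from 557 ± 79.4 to 18141 ± 2445 (SD, n = 3). *Ppp1r15a*, which encodes the eIF2alpha phosphatase subunit GADD34, was named after its values were seen too and is the gene of the list that did not pass (log2 fold change 0.12, adjusted p = 0.575). *Mars* overlaps *Ddit3* on the opposite strand and *Spint1* overlaps *Chac1* on the same strand. *Eif2ak3*, the gene of PERK itself, fell from 5740 ± 92.6 to 3948 ± 614 (log2 fold change -0.55, adjusted p = 0.00943, and 0.0569 without a trend of the variance).

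Promoters of this branch were looked at after the values were seen, with the C/EBP-ATF element TGATGNAA, to which dimers of ATF4 and a C/EBP factor bind. It is short and occurred in 1304 of 32851 windows (3.97%). The windows of 5 of the 9 PERK output genes held it (*Asns*, *Atf3*, *Chac1*, *Nupr1* and *Trib3*), and of the members *Herpud1* alone did, 112 bases before the start and on the opposite strand. The sites of *Chac1* and *Asns* are shown in capitals for comparison with that of *Herpud1* above, *Chac1* at chr2:119351019-119351086 on the plus strand and *Asns* at chr6:7693210-7693262 on the minus strand.
Chac1: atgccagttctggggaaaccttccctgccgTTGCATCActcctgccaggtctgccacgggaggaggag
Asns: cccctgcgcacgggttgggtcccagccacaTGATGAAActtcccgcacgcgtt

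The letters of the site are TTGCATCA in *Herpud1* and *Chac1* alike, which is the element read from the other strand. Of 1219 genes with the element, 372 were tested. Of these 372, 134 rose and 55 fell, beside 19.0% and 16.0% of all tested genes. Their median log2 fold change was 0.41, beside 0.03. The element was picked after the values were seen and the set includes the 5 PERK output genes above, so these counts are no independent evidence that ATF4 acted.

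Over the whole pathway, the 9 lists held 132 tested genes, members and PERK output included. Of these 23 rose (17.4%) and 32 fell (24.2%), beside 19.0% and 16.0% of all tested genes, with a median log2 fold change of -0.08, and without the PERK output 15 of 123 rose and 32 fell (median -0.15). The 32 lowered genes became 20 without control replicate 2 and 21 without control replicate 3. With limma run without a trend of the variance, 14 rose and 14 fell. Rescaling the libraries to the same total turned the split to 36 higher and 19 lower and the median to 0.08, as it moved the median of all tested genes to 0.19. Relative to the median of all genes, *Hspa5* was at 0.60 and *Hsp90b1* at -0.29 under either scaling. Rescaling shifts all genes nearly alike, so this agreement was given in advance.

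Among the 15 sensors and their activators, 3 rose and 3 fell, 20% each, beside 19.0% and 16.0% of all tested genes. The counts of the lists below stand beside the same shares. *Traf2*, which couples IRE1 to kinase signaling, rose from 629 ± 122 to 2268 ± 324 (log2 fold change 1.86, SE 0.17, adjusted p = 0.000113). *Creb3*, an ER-anchored relative of ATF6, rose by 0.43 (adjusted p = 0.0138, and 0.0531 without control replicate 3). *Mbtps1*, the site-1 protease that cuts ATF6, went from 23712 ± 917 to 14434 ± 900 and fell by 0.72 (SE 0.09, adjusted p = 0.000413). Of the 3 sensor genes, *Eif2ak3* alone passed the test.

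Of 16 ER chaperones and co-chaperones, only *Hspa5* and *Dnajc1*, a J-domain partner of BiP, rose (*Dnajc1* by 0.51, adjusted p = 0.00592), and the median of the list was -0.04. *Hyou1*, the GRP170 exchange factor of BiP, overlapped between genotypes (log2 fold change 0.07, adjusted p = 0.699). In the calnexin and calreticulin cycle, 4 of 10 genes fell and 1 rose, beside 16.0% and 19.0% of all tested genes. *Uggt2*, a folding-sensing glucosyltransferase, fell by 0.74 (adjusted p = 0.016) and *Prkcsh*, the beta subunit of glucosidase II, by 0.38 (adjusted p = 0.0284). The cargo receptor gene *Lman1* rose by 0.38 (adjusted p = 0.0239), and *Canx*, the membrane-bound relative of calreticulin, had a log2 fold change of -0.24 (adjusted p = 0.058). *Prkcsh* and *Lman1* each passed in only 2 of the 6 fits that leave out a library, *Prkcsh* without control replicate 1 or mutant replicate 1 and *Lman1* without control replicate 1 or mutant replicate 3, and without control replicate 2 their adjusted p-values were 0.0987 and 0.0985.

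Disulfide isomerases and oxidases held 2 genes that rose (11.76%) and 3 that fell (17.65%) among 17 tested, beside 19.0% and 16.0% of all tested genes. *Ero1l*, the oxidase that recharges the isomerases, rose from 785 ± 58.8 to 1656 ± 133 (log2 fold change 1.08, SE 0.12, adjusted p = 0.000323), whereas *P4hb*, the founding isomerase, went from 42702 ± 851 to 30062 ± 3111 and fell by 0.51 (SE 0.10, adjusted p = 0.00445). *Erp44*, which retains *Ero1l* protein in the early secretory pathway, rose by 0.36 (adjusted p = 0.0195) and *Txndc11* fell by 0.54 (adjusted p = 0.0127). Without control replicate 2 these adjusted p-values were 0.0671 and 0.0514, and that of *Erp44* also lay above 0.05 without control replicate 3, mutant replicate 2 or mutant replicate 3 (0.0508 to 0.0567).

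ER-associated degradation, the list of *Herpud1*, had 5 genes that rose (19.23%) and 7 that fell (26.92%) among 26. Of all tested genes, 19.0% rose and 16.0% fell. *Syvn1* encodes HRD1, the ubiquitin ligase that HERPUD1 joins, and fell from 4559 ± 317 to 3032 ± 510.5 (log2 fold change -0.60, SE 0.13, adjusted p = 0.00854, and 0.0519 without a trend of the variance). The *Herpud1* value divided by that of *Syvn1* went from 0.332 ± 0.019 to 1.12 ± 0.137 (SD, n = 3 each). *Sel1l*, the adaptor of HRD1, overlapped between genotypes (0.06, adjusted p = 0.765), and *Edem1*, a mannosidase-like factor induced through XBP1, had a log2 fold change of 0.32 (adjusted p = 0.126). *Ube2g2*, a ubiquitin-conjugating enzyme, rose by 0.62 (adjusted p = 0.000638), and the mannosidase gene *Man1b1* fell by 0.83 (adjusted p = 0.00472).

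Among the lists of 10 or more genes, the largest share of lowered genes was in the translocon, signal peptidase and oligosaccharyl transferase. There 10 of 22 were lower and 1 higher (median -0.25), beside 16.0% and 19.0% of all tested genes. *Dad1*, a subunit of oligosaccharyl transferase, went from 10708 ± 919 to 5767 ± 823 and fell by 0.90 (SE 0.12, adjusted p = 0.000788). *Spcs1* of the signal peptidase fell by 0.63 (adjusted p = 0.00155), and *Sec63*, which brings BiP to the translocon, rose by 0.38 (adjusted p = 0.0069, and 0.057 without a trend of the variance). In ER to Golgi transport, 1 of 12 genes rose (*Sar1b*, 0.42, adjusted p = 0.0249) and 2 fell, the retrieval receptor gene *Kdelr1* by 0.51 (adjusted p = 0.00872, and 0.0539 without that trend) and *Sar1a* by 0.50 (adjusted p = 0.00197). *Sar1b* had an adjusted p of 0.0994 without control replicate 2, 0.0637 without mutant replicate 1 and 0.0762 without mutant replicate 3. Of 5 transcripts known to be cleaved by IRE1, 3 fell, among them *Hgsnat* by 1.03 (adjusted p = 0.00264) and *Col6a1* by 0.76 (adjusted p = 0.0043). *Col6a1* is also a fibroblast transcript. Of the 5 fibroblast markers 2 fell and 3 did not pass the test, and their part in the fall of *Col6a1* was not tested.

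**Figure D4:**
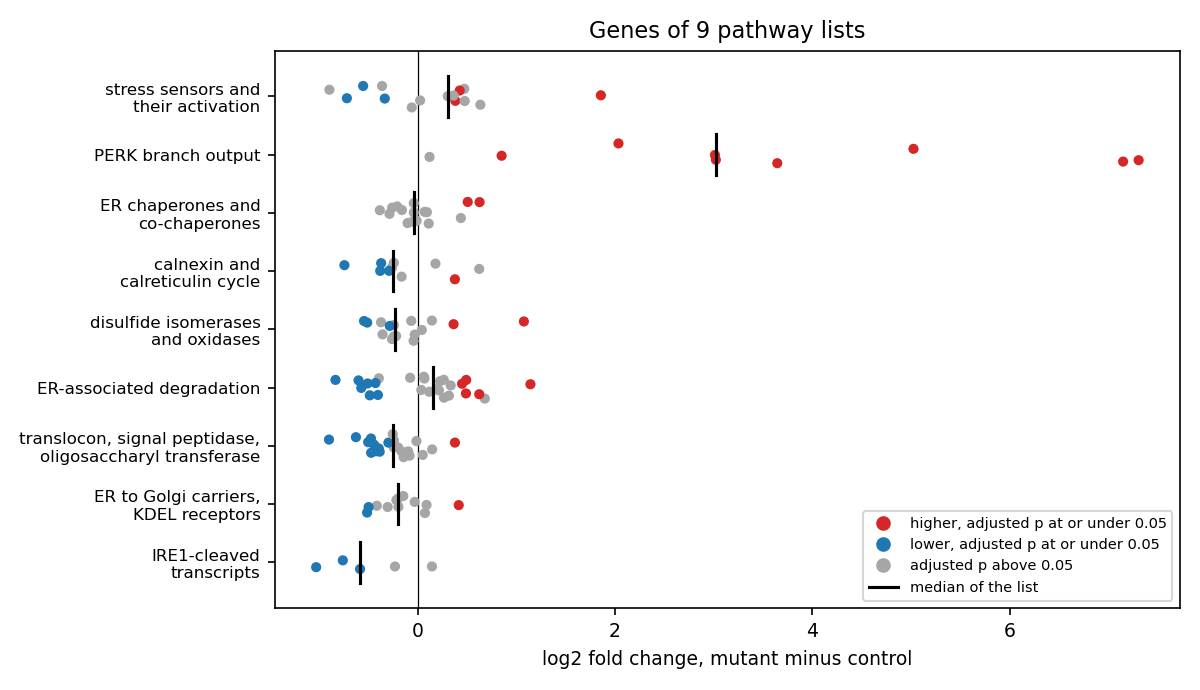
Log2 fold changes between mutant-labelled and control-labelled libraries (x axis) of the genes of 9 pathway lists, 1 point per tested gene, with red for higher, blue for lower and gray for an adjusted p above 0.05, and a black bar at the median of each list. The list named PERK branch output, whose genes other eIF2alpha kinases can also reach through ATF4, lies to the right, with a median of 3.02. The translocon list has 10 blue points and 1 red point.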

How the data were processed

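Oriented cDNA of the poly-A fraction was sequenced. According to the methods and the processing notes of the submitters, reads were mapped to mm10 with STAR 2.4.0 and counted on the constitutive regions of FAST DB genes. The deposited signal per gene and library is this count divided by a DESeq2 size factor of the authors. Dividing by the value of 1 read gave whole reads (tolerance 0.1) for 100% of the values. log2(value + 1), a scale that understates changes of genes with few reads, was compared with limma 3.58.1 (eBayes with trend) in R 4.3.3 as mutant minus control over 25802 genes, with Benjamini-Hochberg adjustment over all of them. "Rose" and "fell" mean an adjusted p at or under 0.05. Errors are SDs, and n = 3 animals a genotype, for which an exact permutation test cannot give a p below 0.1. Replicate numbers were not used to pair the libraries in the main fit, and whether they mark pairs is not given. edgeR 4.0.16 and DESeq2 1.42.0 were run on the recovered reads as alternatives. Scripts were tested on simulated data.

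Members and lists were chosen with earlier results of these data known. Named are all members, in each list the 2 largest rises and 2 largest falls that passed, 9 further pathway genes whatever their values, and *Adar*. Other genes, such as *Asns*, *Ppp1r15a* and those with a promoter match, were named outside this rule after their values were seen. *Selenof* was not found under its symbol. Promoters were matched by symbol for 106 of 133 genes. A planned count of genes with an ER retrieval signal was not run, since no protein sequences were used. Genes on overlapping opposite strands, such as *Syvn1* and *Mrpl49*, *Spcs1* and *Glt8d1* or *Creb3* and *Gba2*, may share reads, as strand use in counting is not given in the sources used here.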

Additional observations from a re-analysis of the deposited data

How the results depend on the processing

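Of the members, *Herpud1*, *Hspa5*, *Calr*, *Ern1* and *Sdf2l1* kept their direction and their side of the threshold in all 17 alternatives, and no member changed direction. The count of members that rose, 3, became 5 with DESeq2 and with libraries rescaled to the same total, where *Atf6* and *Dnajb9* were added, became 2 without a trend of the variance, where *Xbp1* was lost, and ran from 3 to 5 with each library left out in turn (5 without control replicate 1). The count that fell ran from 0 to 2, with 2, *Hsp90b1* and *Pdia4*, without mutant replicate 2. The median of the members was 0.51 after rescaling to the same total and ran from 0.22 (without control replicate 3) to 0.40. For the pathway genes, 23 higher and 32 lower became 14 and 14 without a trend and 36 and 19 after rescaling to the same total. With libraries left out the counts ran from 19 to 23 and from 20 (without control replicate 2) to 38, with 21 lower without control replicate 3. The median of the pathway genes was 0.0845 after rescaling to the same total and -0.15 to the same 75th percentile, and -0.12 to -0.06 with libraries left out. *Hyou1* and *Sel1l*, which did not pass, changed sign, *Sel1l* to -0.0052 with the 75th percentile, and with libraries left out *Hyou1* ran from -0.0365 (without control replicate 1) to 0.169 and *Sel1l* from -0.0718 (without mutant replicate 3) to 0.172. Calls of *Prkcsh*, *Erp44*, *Lman1* and *Sar1b* were lost in 7, 6, 5 and 4 alternatives, and without a trend those of *Creb3*, *Eif2ak3*, *Kdelr1*, *Sec63*, *Syvn1* and *Txndc11* were lost too. Same-numbered libraries carry consecutive numbers in their sample titles. Their correlations of deviations were -0.06, -0.06 and 0.01, which cannot tell whether these animals shared a litter or a preparation. A replicate block left 3 members higher, 0 lower and 23 pathway genes higher, and 27 lower. The causes of these shifts were not tested. *Ern1*, with 88 reads in its lowest library, is the member most limited by depth.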
